A study of Mus musculus with 6 samples.

Results

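The genes described here are 10 genes for proteins of neutrophil granules and for the S100 alarmins: S100a8, S100a9, Lcn2, Camp, Ngp, Ltf, Mmp8, Mmp9, Cd177 and Retnlg. They were chosen by symbol, and each symbol matched 1 row of the 32285 genes in the count tables. Their unique molecular identifiers (UMIs, one per captured transcript) were summed over each library and each marker-defined cell class. The data are single-cell RNA sequencing (10x 3' chemistry) of live non-cardiomyocytes from mouse ventricles. Male mice aged 8 to 12 weeks were either wild-type (WT, strain C57BL/6JRj) or Trpm4 knockout (KO, strain B6.Cg-Trpm4tm1.2-PG). The 6 groups were WT and KO sampled 24 h after a sham operation, WT and KO sampled 24 h after the left anterior descending artery (LAD) was ligated, and WT and KO sampled 72 h after ligation. Each group was 1 library made from cells of 4 pooled mice. No difference below therefore has a replicate check, no p-value was computed, and every interval covers counting error only. Genotype and strain label cannot be told apart, nor can a group and its library. No 72 h sham library was analysed here, so time after ligation is not separated from time after surgery.

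Neutrophils carry their proteins in granules that are filled in a set order while the cell matures in the bone marrow. Primary granules hold enzymes such as myeloperoxidase, secondary granules hold lactoferrin and the cathelicidin, and tertiary granules hold gelatinase. The genes of the primary and secondary granules are switched off before the cell enters the blood, whereas S100A8 and S100A9, which form the calcium-binding complex calprotectin of the cytosol, stay abundant in circulating neutrophils. After a myocardial infarct neutrophils are the first leukocytes to enter the heart in large numbers, and calprotectin released there acts as a danger signal through Toll-like receptor 4 and the receptor for advanced glycation end products.

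Positions are those of GENCODE M21 on GRCm38 (mm10), and no other annotated gene overlapped any of the 10. S100a8 (chr3:90668978-90670035, plus strand) and S100a9 (chr3:90692632-90695721, minus strand) are neighbours on chromosome 3. The secondary granule genes Camp (chr9:109847379-109849617, minus), Ngp (chr9:110419747-110423012, plus) and Ltf (chr9:111019271-111042767, plus) lie near each other on chromosome 9, which also carries Mmp8 (chr9:7558456-7568485, plus). Lcn2 (chr2:32384633-32388252, minus), Mmp9 (chr2:164940780-164955850, plus), Cd177 (chr7:24743983-24760311, minus) and Retnlg (chr16:48872621-48874496, plus) lie elsewhere. The sequence upstream of the transcript start is shown for Camp, Ngp and Ltf and for the calprotectin pair. In the kept cells of 3 libraries most UMIs of the first 3 genes were found in the same few barcodes. Both genes of the pair were abundant together in every library. Sequences are from RefSeq, build GRCm38.p6, written 5′ to 3′ on the gene's strand, and capitals mark the letters TTGCNNAA on either strand, the core of the sequence read by C/EBP factors.
S100a8, chr3:90668858-90668977, plus: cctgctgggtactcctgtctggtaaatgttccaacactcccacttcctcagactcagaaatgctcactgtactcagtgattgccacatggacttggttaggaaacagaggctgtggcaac
S100a9, chr3:90695722-90695841, minus: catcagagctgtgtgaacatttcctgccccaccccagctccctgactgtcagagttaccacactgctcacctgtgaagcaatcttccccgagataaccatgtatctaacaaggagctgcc
Camp, chr9:109849618-109849706, minus: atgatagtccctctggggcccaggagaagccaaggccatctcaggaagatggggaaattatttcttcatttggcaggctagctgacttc
Ngp, chr9:110419627-110419746, plus: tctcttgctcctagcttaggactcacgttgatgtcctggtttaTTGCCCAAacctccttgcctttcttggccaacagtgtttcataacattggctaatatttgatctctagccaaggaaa
Ltf, chr9:111019151-111019270, plus: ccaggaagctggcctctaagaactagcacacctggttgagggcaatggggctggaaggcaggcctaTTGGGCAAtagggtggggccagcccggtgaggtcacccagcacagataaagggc
Over the 250 bases before the RefSeq start, 6 of the 9 genes with an entry held at least 1 match (S100a9, Lcn2, Ngp, Ltf, Mmp8 and Retnlg), against 3142 of 32851 promoters of the same length (9.56%). The first base of the match lay at -75 in Ltf, at -19 in Mmp8 and at -138 and -11 in Ngp, counted from the start. A match is a description of letters, and no binding was measured.

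The 6 libraries held 34940 deposited cells, of which 32051 were kept, between 3362 and 6821 in each library. Their median depth was 3062 to 4176 UMIs per cell at 24 h, 8009.5 in the WT library at 72 h and 1354 in the KO library at 72 h. Any pair of libraries shared 3 to 14 cell barcodes. Trpm4 gave 262, 120 and 180 UMIs in the WT libraries (sham, ligation 24 h, ligation 72 h) and 186, 124 and 51 in the KO libraries. The deleted part of the gene is not given in the labels, and tags from the 3' end can lie outside it, so these counts do not check the genotype. Cells were clustered with the 10 genes left out of the clustering and of the markers. Neutrophils, 7457 cells in 4 clusters, were named from genes such as Csf3r, Cxcr2 and Hdc, and made up 16.7% and 11.6% of kept cells at sham (WT, KO), 34.1% and 52.0% at 24 h after ligation, and 21.4% and 6.27% at 72 h. Monocyte/macrophage cells, 8629 in 8 clusters, were the other large leukocyte class. Although the fine mesh is meant to remove cardiomyocytes, 402 kept cells carried cardiomyocyte markers.

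Levels are given in CPM, the UMIs of a gene scaled to 1000000 UMIs of the class in that library. S100a8 in neutrophils stood at 58795 CPM in WT sham, 49991 in KO sham, 60090 in WT at 24 h after ligation, 79567 in KO at 24 h, 33698 in WT at 72 h and 32524 in KO at 72 h. S100a9, its partner in calprotectin, stood at 53039, 56661, 70168, 75276, 28406 and 26298 CPM in the same order. Both libraries at 72 h lay below all 4 libraries at 24 h for both genes. The pair together made up 11.2% and 10.7% of all neutrophil UMIs at sham, 13.03% and 15.5% at 24 h after ligation and 6.21% and 5.88% at 72 h (WT, KO). With all 10 genes the share was 11.8%, 11.4%, 14.2%, 16.8%, 6.61% and 6.22%, so the pair made up most of the total. Within a library the median neutrophil devoted from 3.25% (WT, 72 h) to 11.9% (KO, 24 h) of its UMIs to the pair, and the cells of one library spread widely, from 1.102% at the 10th percentile to 24.9% at the 90th in WT at 24 h after ligation. S100a8 UMIs per S100a9 UMI stayed between 0.856 and 1.24 in neutrophils.

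**Figure D1:**
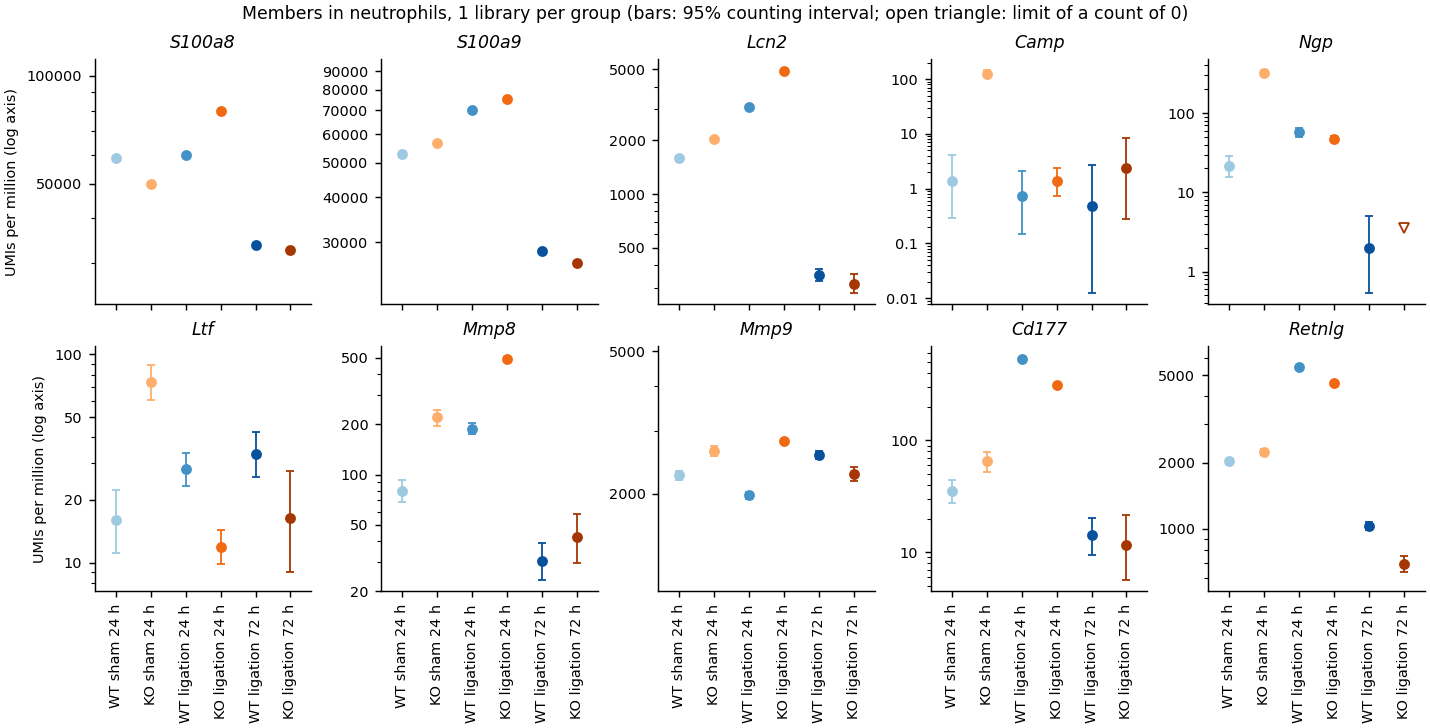
Level of each gene in neutrophils of the 6 libraries (CPM, log axis with its own range in each panel); points are single libraries, bars the 95% counting interval, and the open triangle the limit that a count of 0 allows. Cd177, Lcn2, Mmp8 and Retnlg stood highest 24 h after ligation and lowest at 72 h in both genotypes, Mmp9 stayed between 1981 and 2816 CPM, and the high KO sham points of Camp, Ngp and Ltf rest on 1 barcode.

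Cd177, a surface protein of neutrophils that is also stored in secondary granules, had the largest ratio of the 9 genes compared between sham and 24 h after ligation in WT. Its neutrophil level was 35.3 CPM in WT sham, 65.0 in KO sham, 531 in WT and 315 in KO at 24 h after ligation, and 14.2 and 11.7 at 72 h (WT, KO). The 2 ligation libraries at 24 h stood apart above the other 4. Cd177 was 15.05-fold higher in WT at 24 h than in WT sham (log2 ratio 3.91, interval 3.58 to 4.26) and 4.85-fold higher in KO (2.28, 1.99 to 2.58). At least 1 Cd177 UMI was found in 5.58% and 8.85% of sham neutrophils, 60.7% and 37.4% at 24 h after ligation and 2.77% and 2.34% at 72 h (WT, KO). After each cell was thinned to 1000 UMIs, which left out between 12 and 49 shallower neutrophils per library, these shares were 2.33%, 4.35%, 32.3%, 19.7%, 1.63% and 0.504%. In endothelial cells, which should lack the gene, the unthinned share was at most 0.596%, at median depths of 1182 to 3653.5 UMIs against 1974 to 3152 in neutrophils.

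Lcn2 (lipocalin-2, which binds iron-carrying siderophores of bacteria) stood at 1588 and 2024 CPM in sham neutrophils, 3087 and 4889 at 24 h after ligation and 354 and 316 at 72 h (WT, KO). Retnlg (resistin-like gamma, a secreted protein of the resistin family) stood at 2025 and 2231, then 5453 and 4596, then 1027 and 690 CPM. Both genes were highest in the 2 ligation libraries at 24 h and lowest in the 2 libraries at 72 h. Mmp8, the neutrophil collagenase, stood at 79.9 and 220 CPM at sham, 189 and 488 at 24 h after ligation and 30.4 and 42.1 at 72 h. For Mmp8 the KO sham library lay above the WT ligation library at 24 h, so sham and ligation overlapped. Mmp9, the gelatinase of tertiary granules, stood at 2254, 2639, 1981, 2816, 2574 and 2276 CPM (WT sham, KO sham, WT and KO at 24 h after ligation, WT and KO at 72 h). Its levels by condition interleaved, and it was detected in 88.1% to 95.2% of neutrophils in every library.

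From sham to 24 h after ligation, 4 of the 9 genes with enough counts in WT neutrophils were at least 2-fold higher and 0 were at least 2-fold lower. A gene was compared where it had at least 50 UMIs over the 2 libraries. Of all 5974 genes compared, 5.11% were at least 2-fold higher and 8.52% at least 2-fold lower. The 4 were Cd177, Retnlg (2.69-fold, log2 1.43, 1.38 to 1.48), Ngp (2.64-fold, 1.40, 0.94 to 1.89) and Mmp8 (2.36-fold, 1.24, 0.997 to 1.49). For Ngp 1 barcode held most of the WT sham UMIs, and without the highest barcode of each library its log2 ratio was 3.79. All 47 kept Ngp UMIs of WT sham lay in 8 barcodes, so both ratios of Ngp rest on few sham cells. Lcn2 was 1.94-fold higher, just short of the line. S100a9 was 1.32-fold higher, and S100a8 differed by a log2 ratio of 0.03. The median log2 ratio of the 9 genes was 0.96, beside -0.23 over all genes.

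KO neutrophils at 24 h after ligation, set against KO sham, had 4 of 10 genes at least 2-fold higher and 3 at least 2-fold lower, where 2.92% and 3.59% of all 7018 genes compared were. The 4 higher were Cd177, Lcn2 (2.42-fold, log2 1.27), Mmp8 (2.22-fold, 1.15) and Retnlg (2.06-fold, 1.04). Cd177, Mmp8 and Retnlg were thus past the line in both genotypes. The 3 lower genes were Camp, Ngp and Ltf, whose KO sham counts lay mostly in 1 barcode described below. Without the barcode that held most of each gene's UMIs, the count of lower genes was 0 and the ratio of Ngp was 0.35 in place of -2.76. The median of the 10 was 0.54, beside -0.18 over all genes. S100a8 was 1.59-fold higher in KO at 24 h.

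At 72 h against 24 h after ligation most of the genes were lower in neutrophils. In WT neutrophils 6 of 9 genes were at least 2-fold lower and 0 at least 2-fold higher, whereas 6.88% of all 6412 genes were lower and 32.5% higher. Cd177 was 37.3-fold lower, Lcn2 8.73-fold, Mmp8 6.20-fold, Retnlg 5.31-fold and S100a9 2.47-fold, with Ngp the sixth (57.1 against 1.96 CPM). S100a8 was 1.78-fold lower. In KO neutrophils 7 of 9 were at least 2-fold lower and 0 higher, against 5.02% and 29.2% of all 7053 genes. There Cd177 was 26.9-fold lower, Lcn2 15.5-fold, Mmp8 11.6-fold, Retnlg 6.66-fold, S100a9 2.86-fold and S100a8 2.45-fold, and Ngp, at 444 UMIs and 0 UMIs, was at least 13.3-fold lower against a floor of 3 UMIs. The medians of the genes were -2.41 and -2.73 (WT, KO), beside 0.55 and 0.51 over all genes.

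Mmp9 differed less. It was 0.38 higher on the log2 scale at 72 h than at 24 h in WT (0.33 to 0.43) and 0.31 lower in KO (log2 ratio -0.31, -0.37 to -0.24). Once ratios were centred on the median gene, the WT value became -0.17, so its direction depends on the scaling, and so does that from sham to 24 h in WT (-0.19, or 0.04 after centring). Ltf, the lactoferrin gene, was measured on few UMIs in neutrophils (34, 110, 117, 113, 68 and 14 in the order above). Its ratio at 72 h against 24 h was 0.24 in WT (-0.21 to 0.69, or -0.30 after centring) and 0.46 in KO (-0.46 to 1.26), not distinguishable from no difference at this depth.

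Mmp8 was higher in KO than in WT neutrophils at sham and at 24 h after ligation, and Cd177 was lower in KO at 24 h after ligation. At sham 4 of 10 genes were at least 2-fold higher in KO and 0 lower, where 0.652% and 0.474% of all 5062 genes were. They were Camp, Ngp and Ltf, whose KO counts lay mostly in 1 barcode, and Mmp8 (2.75-fold, log2 1.46, 1.19 to 1.73). Without the highest barcode of each gene the count was 2 (Mmp8, and Ngp on few remaining barcodes). At 24 h after ligation Mmp8 was 2.59-fold higher in KO (1.37, 1.26 to 1.48) and Ltf 2.36-fold lower (-1.24, -1.63 to -0.86), 1 gene in each direction of 9, beside 2% and 1.12% of all 7318 genes. Lcn2 was 1.58-fold higher, Mmp9 1.42-fold and S100a8 1.32-fold higher in KO, while Cd177 was 1.69-fold lower (-0.75, -0.83 to -0.67). At 72 h 0 of 7 genes were at least 2-fold higher and 1 lower (Ltf, -1.03, -1.97 to -0.18), beside 0.694% and 0.841% of all 5472 genes. Mmp8 at 72 h differed by 0.47, with an interval of -0.16 to 1.09.

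Most neutrophils at sham and at 72 h lay in 1 cluster, whereas many of those at 24 h after ligation lay in another. Cluster 1 (led by Ccrl2, Tnf and Cxcr4) held 65.4% and 60.5% of sham neutrophils and 61.4% and 73.6% at 72 h (WT, KO), but 18.3% and 26.7% at 24 h after ligation. Cluster 4 (led by Cstdc4, G0s2 and Il1r2) held 54.8% of WT and 34.6% of KO neutrophils at 24 h after ligation, and 8 and 12 cells at sham. Cluster 3 (Pglyrp1, Wfdc21, Stfa2l1) and cluster 15 (interferon-stimulated genes) held most of the rest. Some differences of time were also seen inside clusters. Within clusters 1 and 3, Cd177 at 24 h after ligation was 4.26-fold to 9.06-fold its sham level in WT and 1.94-fold to 3.32-fold in KO, and Retnlg 1.36-fold to 5.18-fold and 1.43-fold to 2.91-fold. Mmp8 in WT was 2.31-fold its sham level in cluster 3 and 1.26-fold in cluster 1, where the interval was 0.758 to 2.06. From 24 h to 72 h after ligation Cd177, Lcn2, Mmp8, S100a8 and S100a9 were lower in each of the clusters with enough counts, 2 or 3 clusters for each gene and genotype. Retnlg was lower in clusters 1 and 15 in both genotypes, but in cluster 3 of WT its level was 0.987 of that at 24 h (0.929 to 1.05).

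The genotype differences at 24 h after ligation were followed through the same 4 clusters. Mmp8 in cluster 4 was 164 CPM in WT and 451 in KO, and in cluster 1 48.1 and 205 CPM. It was higher in KO in 4 of 4 clusters, by 1.97-fold to 4.27-fold. Lcn2 (1.36-fold to 1.77-fold), S100a8 (1.14-fold to 1.45-fold) and Mmp9 (1.23-fold to 1.55-fold) were also higher in KO in 4 of 4. Cd177 was lower in KO in 4 of 4, at 0.539 to 0.770 of the WT level. Retnlg was higher in 1 cluster and lower in 3, and S100a9 higher in 2 and lower in 2. Clusters of 1 library are not replicates, and their shared direction adds no replicate check.

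**Figure D2:**
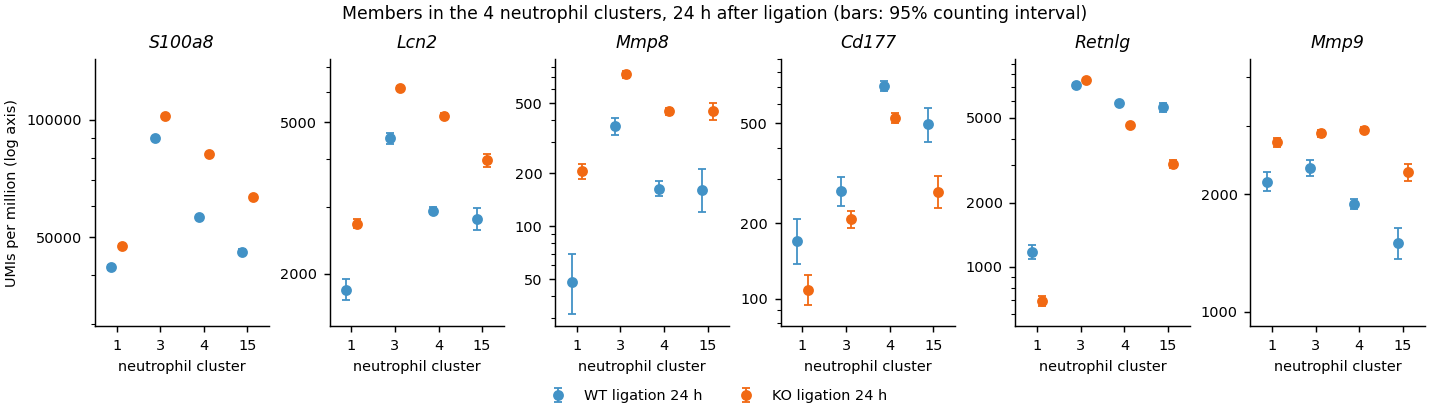
Level of 6 genes in the 4 neutrophil clusters of the 2 libraries taken 24 h after ligation (CPM, log axis; blue WT, orange KO; bars, 95% counting interval). Orange lies above blue in every cluster for S100a8, Lcn2, Mmp8 and Mmp9 and below it in every cluster for Cd177, while Retnlg lies below in 3 of 4.

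Other genes of neutrophil function were counted by lists that hold none of the 10. Of 14 other granule, membrane and cytosolic genes with enough counts, 4 in WT and 1 in KO were at least 2-fold higher at 24 h after ligation than at sham and 2 and 0 lower. At 72 h against 24 h, 7 and 5 were lower and 1 and 0 higher, with medians of -1.04 and -0.70. Over all genes 5.11% and 2.92% were higher and 8.52% and 3.59% lower at 24 h against sham, and 6.88% and 5.02% lower and 32.5% and 29.2% higher at 72 h against 24 h, so 1 gene of 14 or of 6 is near the background. Wfdc21, a small secreted protein with a WAP domain, had log2 ratios of 1.45 and 1.25 at 24 h against sham and -3.64 and -3.44 at 72 h against 24 h (WT, KO). Lyz2, the lysozyme gene of myeloid cells, ran the other way, at -1.78 and -0.33, then 1.40 and 0.64. Of the 9 primary granule and precursor genes measured, 3 had enough neutrophil counts. Among them Chil3, a chitinase-like lectin, stood at 385, 835, 2125, 4557, 97.1 and 133 CPM and had ratios of 2.46 and 2.45, then -4.45 and -5.09. Mpo, Elane and Ctsg, enzymes of primary granules, were at most at 1.2 CPM in neutrophils. Prtn3, another such enzyme, stood at 19.8 and 16.2 CPM at sham and 5.08 and 14.4 at 24 h after ligation (WT, KO). At 72 h it stood at 31.4 and 30.4 CPM, and so did not follow Chil3. These Prtn3 values leave out neutrophils with at least 2 UMIs of at least 2 of Camp, Ngp and Ltf, which held 0 Prtn3 UMIs. Of 6 other S100 genes compared, 0 were at least 2-fold higher at 24 h in either genotype, and 1 in WT and 0 in KO were lower. Tlr4, a receptor of calprotectin, stood at 94.1 and 127 CPM at sham, 247 and 193 at 24 h after ligation and 59.4 and 60.9 at 72 h. Its list of receptors and metalloproteinase inhibitors had 4 genes compared in WT and 6 in KO. At 24 h against sham 1 and 0 of them were higher and 1 and 1 lower (WT, KO). At 72 h against 24 h 0 and 1 were higher and 2 and 2 lower.

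Across 56 sums of a library and a class, the pattern of S100a8 was most like those of Il1b (Pearson r of log values 0.92), Csf3r (0.91) and Cd33 (0.91). Mmp9 was most like Cxcr2 (0.94) and Csf3r (0.93), Retnlg like Stfa2l1 and Il1r2 (0.89 each), Cd177 like Tarm1 and Cd14 (0.90 each), and Mmp8 like Hk3 (0.84) and Adam8 (0.83). Lcn2 had the lower likeness of 0.80, to Ier3, and 0.79, to Wfdc21. These values compare 12860 genes, the points share libraries and depth, and they are a description.

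Whether the 10 genes lay in neutrophils or in other cells was examined next. S100a8 UMIs lay in neutrophils to 95.4% and 93.0% at sham, 91.2% and 93.6% at 24 h after ligation, 94.7% in WT at 72 h and 56.1% in KO at 72 h. S100a9 gave 96.9%, 94.7%, 94.5%, 95.04%, 95.7% and 54.8%, Retnlg 97.0%, 92.7%, 95.6%, 96.8%, 97.9% and 42.5%, and Mmp9 90.6%, 91.8%, 93.3%, 94.3%, 82.6% and 57.2%. In 5 libraries these 4 genes were thus counted mostly in neutrophils, and the KO library at 72 h stood apart. Mmp8 and Cd177 were divided with monocyte/macrophage cells. Neutrophils held 35.9%, 52.5%, 44.9%, 65.3%, 8.23% and 9.60% of Mmp8 UMIs, and monocyte/macrophage cells 59.5%, 44.96%, 52.8%, 32.4%, 84.99% and 68.5%. For Cd177 the neutrophil share was 35.4%, 47.1%, 88.6%, 86.0%, 5.84% and 3.26%, so that at 72 h most Cd177 UMIs, 84.7% in WT and 79.5% in KO, lay in the monocyte/macrophage class.

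**Figure D3:**
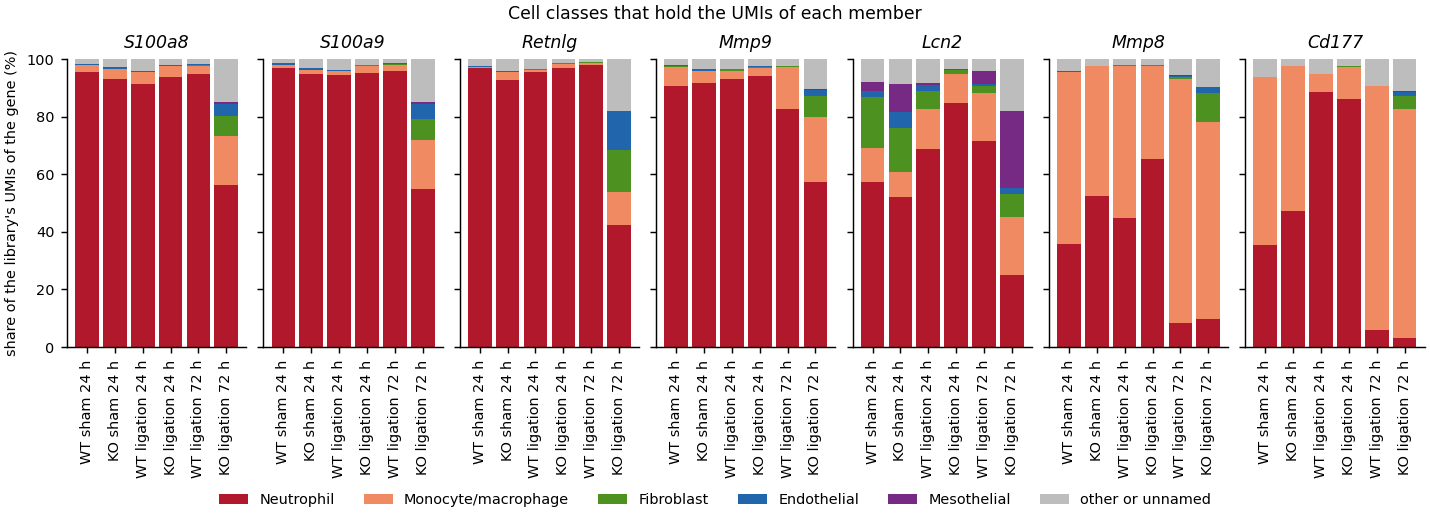
Share of each library's UMIs of 7 genes by cell class (percent of the UMIs in kept cells; grey, other or unnamed classes). Neutrophils (red) hold 82.6% to 97.9% of S100a8, S100a9, Retnlg and Mmp9 in 5 libraries but 42.5% to 57.2% in KO at 72 h, while Mmp8 and Cd177 at 72 h lie mostly in monocyte/macrophage cells (light orange) and Lcn2 is spread over several classes.

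In droplet data RNA set free from broken cells is captured with every cell, and abundant neutrophil transcripts can appear in any class. Its size was measured from 8 neutrophil genes outside the set (Csf3r, Cxcr2, Il1r2, Hdc, G0s2, Stfa2l1, Mxd1 and Mmp25), as their level in a class relative to that in neutrophils of the same library. In monocyte/macrophage cells this share was 0.687% and 0.692% at sham, 1.65% and 1.70% at 24 h after ligation, 0.742% in WT at 72 h and 3.21% in KO at 72 h. Single genes of the 8 differed, from 0.0733% (Stfa2l1) to 1.63% (Mxd1) in WT sham, so the share is approximate. Monocytes may carry some of the 8, in which case the share is too high and the ratios over it are too low. A gene was called above free RNA where its level divided by that share had a lower bound of at least 3 and no barcode held 50% of its UMIs. A gene that did not pass is not thereby shown to be only free RNA.

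S100a8 in monocyte/macrophage cells stood at 289 and 328 CPM at sham, 1396 and 1754 at 24 h after ligation, and 78.1 and 844 at 72 h (WT, KO). Those levels were 0.716, 0.947, 1.41, 1.295, 0.313 and 0.809 times what the free RNA share gives. S100a9 stood at 103, 161, 492, 1085, 47.6 and 690 CPM, or 0.283, 0.411, 0.424, 0.847, 0.226 and 0.817 times. In KO at 24 h after ligation 1 barcode held 24.8% of the S100a8 and 40.9% of the S100a9 UMIs of the class. Neither gene passed the free RNA line over the whole class in any of the 6 libraries, and the same held for Mmp9 (0.834 to 2.14 times) and Retnlg (0.0723 to 0.714 times). Within the class Mmp9 did pass in 3 pairs of a cluster and a library, cluster 2 (3.96 times) and cluster 16 (5.86) in WT sham and cluster 8 in WT at 72 h (3.70). Of the Mmp9 UMIs of WT sham 62.3% lay in cells with none of the 8 free RNA genes, 61.4% of the class. The pair of S100 genes was not in the neutrophil proportion here. S100a8 UMIs per S100a9 UMI were 2.80, 2.03, 2.84, 1.62, 1.64 and 1.22 in monocyte/macrophage cells, above the neutrophil ratio in 5 of 6 libraries (1.22 against 1.24 in KO at 72 h). The 1.62 of KO at 24 h after ligation includes the 1 barcode above, with 7902 S100a8 and 8057 S100a9 UMIs. In WT at 24 h after ligation the cluster 5 (led by Plac8, Chil3 and Ccr2) had 2552 CPM of S100a8 and 612 of S100a9. In monocyte/macrophage cells with none of the 8 genes S100a8 and S100a9 stood at 139 and 33.0 CPM in WT sham, 161 and 15.3 in KO sham, and 559 and 54.9 in WT at 24 h after ligation. S100a8 exceeded S100a9 in these cells, whereas the neutrophils of those libraries held 1.11, 0.882 and 0.856 S100a8 UMIs per S100a9 UMI.

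Mmp8 and Cd177 were above free RNA in the same cells. Mmp8 stood at 25.8, 32.6, 108, 126, 22.2 and 25.3 CPM in the monocyte/macrophage class, which was 47.0, 21.5, 34.8, 15.2, 98.3 and 18.7 times the free RNA level, in 6 of 6 libraries. Cd177 stood at 11.3, 12.1, 17.8, 21.6, 14.6 and 24.1 CPM and passed in 5 of 6, with 2.03 times in WT at 24 h after ligation, where neutrophils carried most of it. Lcn2 stood at 63.4, 59.3, 301, 308, 5.89 and 21.2 CPM and passed in the 4 libraries at 24 h (5.81, 4.24, 5.91 and 3.70 times) but not at 72 h (2.25 and 2.09). In KO at 24 h after ligation 1 barcode, rich in Camp, Ngp and Ltf and described below, held 24.9% of the Lcn2 UMIs of the class. It held 1392 of 5589 UMIs, and the ratio without it was not computed. The pass of Lcn2 in that library therefore cannot be read as one of the class without this barcode. In single clusters of that library, none of which held the barcode, Lcn2 was 4.64 times the free RNA level in cluster 5. It was 1.54 times in cluster 2, 1.68 in cluster 16 and 0.849 in cluster 8. In all, 15 pairs of a gene and a library passed in this class, that one included. UMIs of Mmp8 and Cd177 were also present in cells with none of the 8 free RNA genes. In WT at 72 h 45.2% of Mmp8 and 42.8% of Cd177 UMIs lay in such cells, 1212 of 2112. The shares were lower at 24 h after ligation, where such cells made up 40.5% and 38.1% of the class (WT, KO). They held 17.5% and 18.7% of Mmp8 and 15.2% and 16.3% of Cd177 UMIs there. Both genes were highest in cluster 5, where Mmp8 was 78.0, 134, 197, 238, 52.2 and 61.3 CPM and Cd177 36.6, 49.8, 35.1, 44.5, 64.3 and 72.8 CPM. In that cluster Cd177 did not have the high 24 h ligation values it had in neutrophils.

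**Figure D4:**
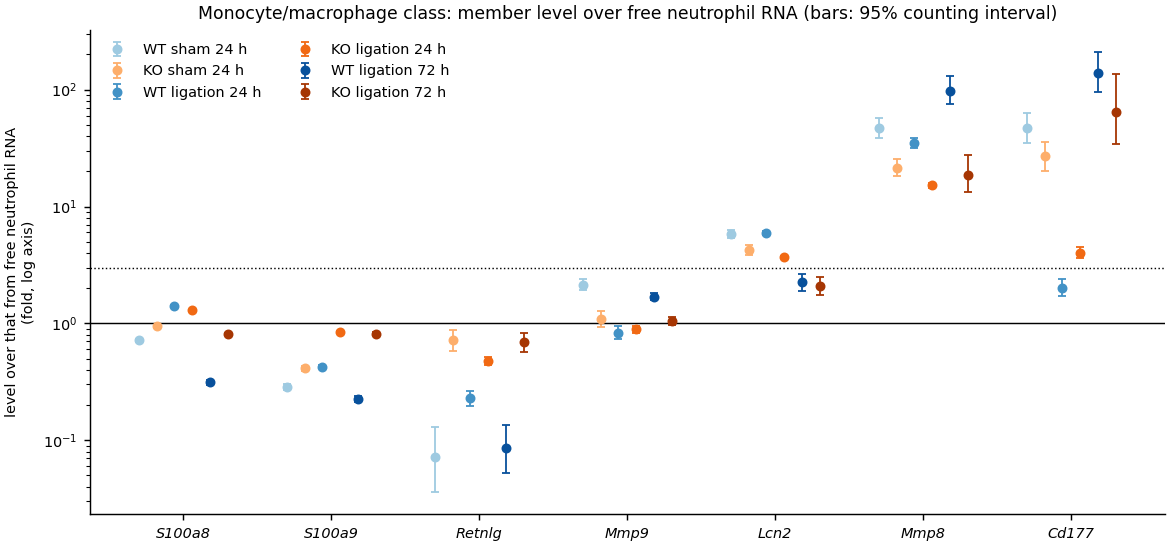
Level of 7 genes in monocyte/macrophage cells divided by the level that the free RNA share gives (fold, log axis; 1 point per library, bars 95% counting interval; solid line 1, dotted line 3). Points of S100a8, S100a9, Retnlg and Mmp9 lie below the dotted line in all 6 libraries. Those of Mmp8 lie above it in all 6, and those of Cd177 and Lcn2 above it in 5 and 4. Of the Lcn2 UMIs behind the point of KO at 24 h after ligation, 24.9% lay in 1 barcode.

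Lcn2 and Mmp8 were higher in monocyte/macrophage cells at 24 h after ligation than at sham and lower at 72 h. The ratios in this class were not corrected for free RNA, whose part in those of S100a8, S100a9, Retnlg and Mmp9 was not tested. At 24 h after ligation against sham, 5 of 7 genes were at least 2-fold higher in WT (2.51% of all genes) and 9 of 10 in KO (1.78%), with 0 lower in both (3.97% and 7.84%). The 9 in KO include Camp, Ngp and Ltf, which lay in 1 barcode, and without the highest barcode of each gene 6 were higher. Mmp8 was 4.202-fold and 3.87-fold higher and Lcn2 4.75-fold and 5.19-fold. At 72 h against 24 h, 5 of 7 were at least 2-fold lower in WT (7.26%) and 7 of 10 in KO (2.97%), with 0 higher (12.3% and 9.08%). Without the highest barcode the KO count was 3. Mmp8 was 4.89-fold and 4.98-fold lower and Lcn2 51.2-fold and 14.5-fold, while Cd177 differed by log2 ratios of -0.28 and 0.16. The largest cluster of the class was cluster 2 (Ccl24, Arg1) at sham and at 24 h after ligation, cluster 8 (Trem2, Gpnmb) in WT at 72 h and cluster 9, of 820 median UMIs, in KO at 72 h.

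KO against WT in that class gave 1 of 7 genes higher at sham, beside 2.37% of all genes, and 0 lower (0.371%). It was Retnlg, with 93.7% of its KO UMIs in 1 barcode, and without the highest barcode the count was 0. At 24 h after ligation 4 of 10 were higher (0.539%) and 0 lower (1.25%). They were Camp, Ngp and Ltf, which lay in 1 barcode, and S100a9 (2.21-fold). The same barcode held 40.9% of the S100a9 UMIs of the class. Without the highest barcode of each library S100a9 stood at 644 CPM in KO and 426 in WT, below 2-fold, and the count was 1, that of Retnlg (30.3 and 14.97 CPM). At 72 h 5 of 7 were higher (3.25%) and 0 lower (0.618%), among them S100a8 10.8-fold and S100a9 14.5-fold. The free RNA share of the KO library at 72 h was 3.21% against 0.742% in WT, its cells held a median of 1414 UMIs against 12070.5, and 950 of 2601 held fewer than 1000. S100a8 in cluster 9 stood at 4410 CPM in KO (1107 cells) and 4795 in WT (54 cells). Over the free RNA level of that cluster this was 1.06 times in KO and 3.13 times in WT. In cluster 8 S100a8 was 303 CPM in KO and 24.2 in WT, or 0.671 and 0.157 times the free RNA level. The part of free RNA and depth in the difference was not tested. Mmp8, above free RNA in both libraries, differed at 72 h by 0.19 (-0.02 to 0.40).

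Lcn2 was the most widely spread of the 10. Neutrophils held 57.3%, 52.0%, 68.8%, 84.7%, 71.5% and 25.1% of its UMIs, and fibroblasts 17.9%, 15.1%, 6.23%, 1.28%, 2.28% and 7.91%. Fibroblasts stood at 258 and 198 CPM at sham, 439 and 310 at 24 h after ligation and 7.07 and 28.6 at 72 h, and passed the free RNA line in 3 libraries (5.06, 3.74 and 7.25 times in WT sham, KO sham and WT at 24 h). The class was made of different clusters: cluster 12 (Clec3b, Dpep1) held 297 of 377 fibroblasts in WT sham and 308 of 461 in KO sham, and cluster 11 (Cthrc1, Col1a1, Postn) 98 of 148 in WT and 848 of 1265 in KO at 72 h. At 24 h after ligation cluster 31 (Cxcl5, Cxcl1) held 57 of 202 in WT and 68 of 171 in KO. The free RNA share of the class at sham was set by G0s2, at 10.0% and 9.26% of its neutrophil level. With 6 free RNA genes, without G0s2 and Mxd1 (a choice made after seeing these values), the fibroblast ratios were 126, 65.9, 23.2, 5.32, 5.27 and 2.60. Endothelial cells passed in KO sham (4.14 times) and WT at 24 h after ligation (7.65 times).

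Mesothelial cells, which line the surface of the heart, carried Lcn2 at 616 CPM in KO at 72 h, where 51.1% of 221 cells had a UMI, against 2.53% of endothelial cells of that library (median depths 1259 and 1182 UMIs). That level was 195% of the neutrophil level and 71.5 times the free RNA level (60.3 to 84.7). Of those Lcn2 UMIs 48.1% lay in the 149 cells with none of the 8 free RNA genes. Other libraries had fewer than the 50 mesothelial cells required: 191 Lcn2 UMIs in 10 cells in WT sham (829 CPM), 570 in 19 in KO sham (1628 CPM) and 48 in 18 in WT at 72 h (73.0 CPM), with 9 and 1 cells in WT and KO at 24 h after ligation. Lymphatic endothelial cells of KO at 72 h stood at 112 CPM, 9.45 times the free RNA level.

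Retnlg in endothelial cells of KO at 72 h was above the free RNA level. It gave 188 UMIs (148 CPM), 7.85 times that level (6.63 to 9.27), and the highest barcode held 6.38% of them. The other 5 libraries had between 0.643 and 37.8 CPM in this class. Retnlg UMIs per 1000 S100a8 UMIs were 87.9 in these endothelial cells and 21.2 in the neutrophils of that library. They were 61.1 in its fibroblasts and 18.1 in its monocyte/macrophage cells. Of the Retnlg UMIs of that library 13.6% lay in endothelial cells, 14.6% in fibroblasts and 5.91% in its 170 B cells. The higher proportion was thus not particular to endothelial cells.

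Camp, Ngp and Ltf are the secondary granule genes that encode the cathelicidin, neutrophilic granule protein and lactoferrin. Among kept cells they lay mostly in a few barcodes in the 3 libraries with most Camp UMIs, all of them KO. Which libraries these are depends on the removal of cells. WT at 72 h had 1099 deposited Camp UMIs, of which 1094 lay in 1 barcode removed by its doublet score. The kept cells of the WT libraries held 10, 6 and 4 Camp UMIs (sham, ligation 24 h, ligation 72 h). Camp gave 3, 188, 3, 13, 1 and 2 UMIs in neutrophils and Ngp 46, 474, 237, 444, 4 and 0. For the 0 of KO at 72 h the limit is 3 UMIs, or 3.51 CPM. The KO sham library stood above the other 5 for all 3 genes. Of its counts 1 neutrophil barcode of 7597 UMIs held 187 of Camp, 423 of Ngp and 87 of Ltf, and without it the neutrophil levels were 0.673, 34.3 and 15.5 CPM. The WT sham library stood at 1.41, 21.6 and 15.99 CPM. With the highest barcode of each gene left out of both libraries, the log2 ratio of KO to WT sham was 3.18 for Ngp and 0.13 for Ltf. The Ngp ratio rests on few cells, and no interval was computed for it. All 47 kept Ngp UMIs of WT sham lay in 8 barcodes, and the 53 of KO sham outside the 1 barcode lay in 12.

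Barcodes with at least 2 UMIs of at least 2 of the 3 genes were then listed in all libraries. WT sham had none, although 1 barcode held 82.6% of its Ngp UMIs. WT at 24 h after ligation had 3 neutrophils with 39 Ngp and 11 Ltf UMIs and no Camp UMI. These were 15.5% and 8.73% of that library's Ngp and Ltf, and 92 and 90 other barcodes held the rest. In WT sham and WT at 72 h none of the kept Ltf UMIs lay in such barcodes, and 31 and 54 barcodes held at least 1. KO at 24 h had 2, a neutrophil with 22 Ngp and 3 Ltf UMIs and a barcode of 59542 UMIs in cluster 19 of the monocyte/macrophage class with 2186 Camp, 2240 Ngp and 483 Ltf UMIs, which was 98.8% of the library's Camp. The pair of barcodes held 83.3% of its Ngp and 80.5% of its Ltf, and 147 other barcodes had an Ngp UMI. The barcode of 59542 UMIs also held 7902 UMIs of S100a8, 500 of Chil3, 47 of Cebpe, 20 of Fcnb, 7 of Prtn3 and 5 of Ms4a3. It had 23 of Mki67 and 15 of Top2a, genes of dividing cells, and 86 of Cd74. Mpo, Elane and Ctsg had 0 UMIs there and Csf1r 2. The monocyte/macrophage counts above include this barcode.

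KO at 72 h differed from the others. It had 14 such barcodes of 506 to 2357 UMIs (median 722.5), 10 in an unnamed cluster led by Cd209a and MHC class II genes and 4 in the B cell class. They held 224 Camp, 183 Ngp and 47 Ltf UMIs, which was 97.0%, 97.3% and 61.0% of the library's kept UMIs of the 3 genes. All 14 also held UMIs of Cd74, 186 in sum, and 13 held fewer than 1500 UMIs. None lay in the neutrophil class. Low depth and the mixture of markers move with this result, and their part in it was not tested.

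**Figure D5:**
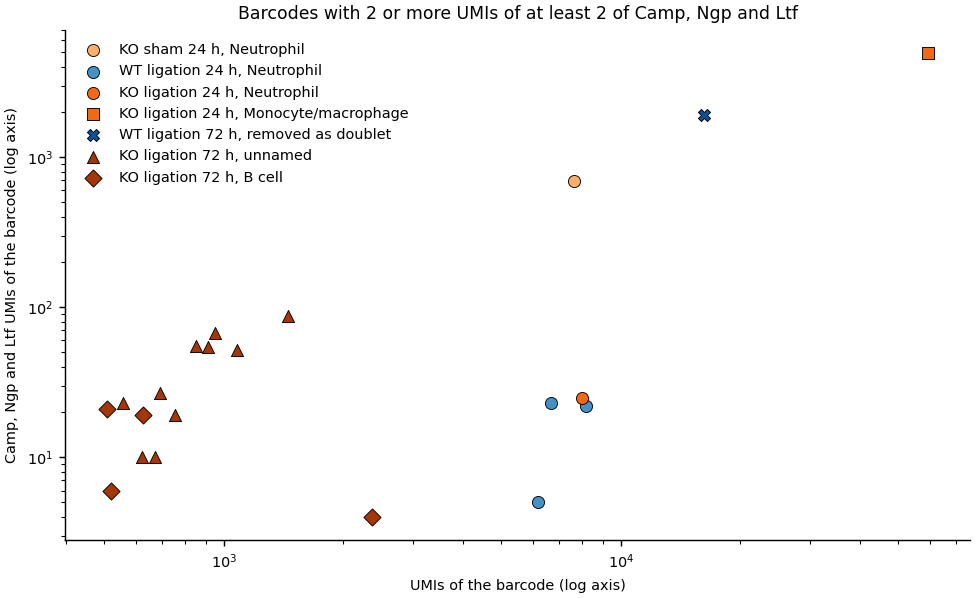
Barcodes with at least 2 UMIs of at least 2 of Camp, Ngp and Ltf: total UMIs of the barcode against the summed UMIs of the 3 genes (both log axes); colour and shape give library and class. KO at 72 h fills the lower left with 14 barcodes of 506 to 2357 UMIs, and single barcodes of KO sham, KO at 24 h and a removed barcode of WT at 72 h stand at the top.

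Camp also gave isolated UMIs in fibroblasts, 34 in 21 of 2624 cells over the 6 libraries, of which 18 cells had no S100a8 UMI. At most 10 UMIs lay in 1 cell. In KO at 72 h fibroblasts gave 0 Camp UMIs in 1265 cells.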

How the data were processed

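Single-cell libraries of 6 groups were analysed, 1 per group. The deposited matrices hold raw UMI counts, which the authors produced on Cell Ranger, release 6.0.0 per the file headers, with mm10 (per the submitters' processing notes); the annotation release is not given in the sources used here. Counts were used as deposited, and the shallowest deposited cell had 500 UMIs. Cells with under 200 genes or over 20% mitochondrial UMIs were left out, and the highest Scrublet scores were removed at 0.8% per 1000 cells. Clustering (scanpy 1.11.5) used 2000 variable genes without the 10 genes, 30 principal components, 20 neighbours and Leiden resolution 1, with no correction between libraries. Of 37 clusters 5 stayed unnamed; names were rebuilt from markers. Ratios are of summed CPM, with exact conditional intervals at 95%; levels have exact Poisson and shares exact Clopper-Pearson intervals. By rule all 10 genes and the listed genes may be named; 1 gene in each of 2 lists had no row in the tables. The members and lists were chosen with earlier results of these data known. The computations were tested on simulated data. Alternatives were other clustering resolutions, no doublet removal, clustering with the members, means over cells, thinned cells, centring on the median gene, leaving out the highest barcode and, chosen after seeing the data, a 1500 UMI minimum and 6 free RNA genes. Leaving out replicates was not possible with 1 library per group.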

Additional observations from a re-analysis of the deposited data

Results flagged for a closer look

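Among neutrophils, 4 effects had opposite signs in the 2 genotypes beyond counting error, each resting on 1 library per group, so the differences were not tested against replicate spread. For 24 h after ligation against sham, the log2 ratio of Ngp was -2.76 in KO and 1.40 in WT, a difference of -4.16, and that of Ltf was -2.63 and 0.82, a difference of -3.44. Both KO values rest on the 1 KO sham barcode. Without the highest barcode of each library Ngp was 0.35 in KO and 3.79 in WT, and Ltf -0.42 and 0.91. No interval was computed for these values, and those of Ngp rest on few sham barcodes, so their signs are not settled. Mmp9 was 0.09 in KO and -0.19 in WT, a difference of 0.28. For 72 h against 24 h, Mmp9 was -0.31 in KO and 0.38 in WT, a difference of -0.69. Centred on the median gene, Mmp9 was 0.28 in KO and 0.04 in WT at 24 h against sham, and -0.82 and -0.17 at 72 h against 24 h, so its opposite signs are lost.

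In WT at 72 h after ligation, 1 barcode of 16233 UMIs that was removed by its doublet score held 1094 Camp, 714 Ngp and 86 Ltf UMIs, with 2843 of S100a8 and 2 of Cxcr2. The kept cells of that library held 4 Camp UMIs.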

How the results depend on the processing

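No paired analysis was possible because each group has 1 library, so no fit with a replicate block can be made; for the same reason no library could be left out. Leiden resolutions of 0.5 and 2 and keeping the members among the clustering genes left every count of members and every median within the limits used for sameness, 1.5 times for counts and the median width of the members' counting error for medians. Centring on the median gene moved the members' neutrophil median to 1.18 and 0.72 (24 h against sham; WT, KO), -2.96 and -3.25 (72 h against 24 h) and 0.05 (KO against WT, ligation 24 h). A mean over cells gave 1.06 (WT, 24 h against sham) and -2.49 (KO, 72 h against 24 h). Thinning to 1000 UMIs gave 1.16 and 0.71 (24 h against sham), -2.16 (KO, 72 h against 24 h) and 0.22 with 2 genes higher (KO against WT, sham), and at 72 h 0 genes were lower in KO than WT. Without the highest barcode of each gene the medians were 0.69 (KO, 24 h against sham, with 0 genes lower in place of 3), -2.56 and -2.88 (72 h against 24 h) and 0.23 with 2 higher (KO against WT, sham), and Ngp turned from -2.76 to 0.35 in KO at 24 h against sham, since 1 barcode held most of its sham UMIs. In cells with at least 1500 UMIs, a limit chosen after seeing the data, 0 genes were lower in KO neutrophils at 72 h.

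In monocyte/macrophage cells, no doublet removal gave 3 genes higher in WT at 72 h against 24 h, 0 in KO against WT at sham and 3 at 72 h. A mean over cells gave 2 higher in KO at 72 h against 24 h and 3 lower in KO than WT at sham. Thinning gave 1 higher and 3 lower in KO at 72 h against 24 h, and for KO against WT 0 higher at sham and 2 at 24 h after ligation. Without the highest barcode 3 were lower in KO at 72 h against 24 h, 0 were higher in KO than WT at sham and 1 at 24 h after ligation. Beyond the highest-barcode setting, whose construction removes 1 barcode, the cause of these moves was not tested. Counts of genes above free RNA kept within 1.5 times under a fold of 2, no doublet removal, resolution 2 and 6 free RNA genes. Depth limits Camp, Ngp and Ltf in neutrophils, which had 0 to 474 UMIs per library.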
